A study of Danio rerio with 8 samples.

Results

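The enzymes that copy, join and repair DNA were followed in the heads of zebrafish larvae that lack mtmr5, the gene that the annotation names sbf1. The members were picked out by symbol, with earlier results of these data known. They are the MCM, ORC and GINS genes and cdc6, cdc7 and cdc45, the subunits of DNA polymerases alpha, delta and epsilon with their primases, pcna, fen1 and the RFC and RPA genes, the DNA ligases, ribonucleotide reductase, the MSH genes, and the XRCC, RAD, BRCA, FANC, topoisomerase and PARP genes. Of 108 rows whose symbol matched, 9 fell below the filter of at least 10 counts in at least 3 libraries, which left 99 members of 19412 rows tested. The spelling also caught 3 genes that belong to other processes: cdc73, mcm3ap and rad54l2. They are counted among the 99 and named apart.

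Poly(A) RNA was sequenced from 4 mtmr5-KO and 4 WT libraries of the AB strain at 7 days post-fertilization (dpf), and counts per gene were compared between the genotypes. The KO larvae were homozygous for a CRISPR/Cas9 deletion of the mtmr5 gene, and the WT larvae were their siblings without it. Each library pooled dissected heads, 11 to 17 per genotype, and the 4 replicates came from different breeding pairs over time, so a library stands for a pool and not for a single larva. The heads are called brain-enriched, but they also hold eyes, muscle and skin. The neuronal markers elavl3 and snap25a were read in every library. The first had 2366, 2674, 3071 and 3309 CPM in KO heads and 925, 1110.1, 1343 and 1498 CPM in WT heads and rose (log2 fold change 1.23 ± 0.19, edgeR adjusted p = 0.000245). The second had 337, 415, 379 and 386 CPM in KO heads and 352, 400.0, 502 and 454 CPM in WT heads and did not pass (log2 fold change -0.17 ± 0.16, edgeR adjusted p = 0.485).

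Replication begins when the origin recognition complex (ORC) loads the MCM helicase ring onto DNA, and it proceeds when CDC45 and GINS switch the ring on. DNA polymerases then copy both strands, held to the template by the PCNA clamp that RFC loads. FEN1 trims the short fragments of the lagging strand and DNA ligase I seals them. Topoisomerases release the twist that builds up ahead of a moving polymerase, and the mismatch repair, recombination, Fanconi and PARP proteins repair errors and breaks. At 7 dpf many cells of the zebrafish brain are differentiated neurons, while dividing progenitors persist in restricted zones, among them the margin of the retina. Ligases, topoisomerases and repair proteins work in resting cells too, whereas the loading and firing of the MCM ring belongs to cells that divide.

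The libraries held 16104181 to 19170140 counts in KO heads and 20514932 to 22761120 counts in WT heads. The targeted gene sbf1 had 26 to 63 counts in KO libraries against 1894 to 2545 in WT libraries, low in every library labelled KO. Mitochondrially encoded genes took 18.6% to 26.6% of the counts in KO libraries and 6.43% to 8.82% in WT libraries, and the 20 most abundant rows took 48.3% to 65.2% in KO libraries and 21.8% to 28.0% in WT libraries. Levels below are therefore CPM, which are counts relative to library size after TMM scaling, a scaling that sets libraries on the bulk of their genes and not on the total of all counts. The choice matters: the median log2 fold change of all rows, KO over WT, was -0.02 with TMM and -0.98 with library totals. The direction of a modest change thus depends on the scaling. Where it flips, both values are given for members that were called or are shown by library. Other members that are positive below, among them gins1, cdc6, rfc4, fancd2 and parp2, were negative with library totals. Their values were then -0.72, -0.96, -0.90, -0.83 and -0.74. With library totals 719 of the 19412 rows tested rose and 10819 fell (edgeR adjusted p under 0.05). Libraries of one genotype also differed. KO replicates 1 and 2 lay close to each other, as did KO replicates 3 and 4 (chi-square of their counts per degree of freedom 21.6 and 19.7, against 40.4 to 95.0 for the other KO pairs). The WT pairs ran from 45.9 to 110.4, lowest for replicates 1 and 3 and for replicates 2 and 4. The counts of calls are also given without KO replicates 3 and 4.

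The strongest changes were increases of DNA ligase I and of type I topoisomerases. The rows TOP1 and top1a, whose symbols stand for the enzyme that nicks and reseals one strand ahead of polymerases, and lig1, the ligase of the lagging strand, were higher in every KO library than in any WT library. TOP1 was 6.47-fold, lig1 4.54-fold and top1a 2.60-fold higher. In contrast, the genes of the MCM ring and the clamp gene pcna had lower values in KO heads, of which mcm7 passed the test. Of the 99 members, 12 rose and 5 fell at an adjusted p under 0.05 (edgeR quasi-likelihood test, Benjamini-Hochberg adjustment), and 82 did not pass. These are 12.1% and 5.05% of the members, against 13.5% of all rows tested that rose and 7.51% that fell. By count, then, the members did not stand out from the transcriptome in either direction. The counts by role below come from small groups and are to be set against these same shares. The study's stricter limits were an adjusted p under 0.01 with a log2 fold change beyond 1. With edgeR 4 members rose past them (lig1, TOP1, top1a and pold3), where 7.13% of all rows did. With edgeR 0 members fell, where 1.08% of all rows did. DESeq2 gave 6 members higher and 0 lower at these limits. At an unadjusted p under 0.05, 34 members differed in either direction. The share of all rows at that limit was not counted, so this number cannot be set against the transcriptome. Without regard to the test the members leaned down, with 61 negative and 38 positive log2 fold changes and a median of -0.25, against -0.02 over all rows. In bulk heads, fewer cells of a type and less RNA per cell cannot be told apart.

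**Figure D1:**
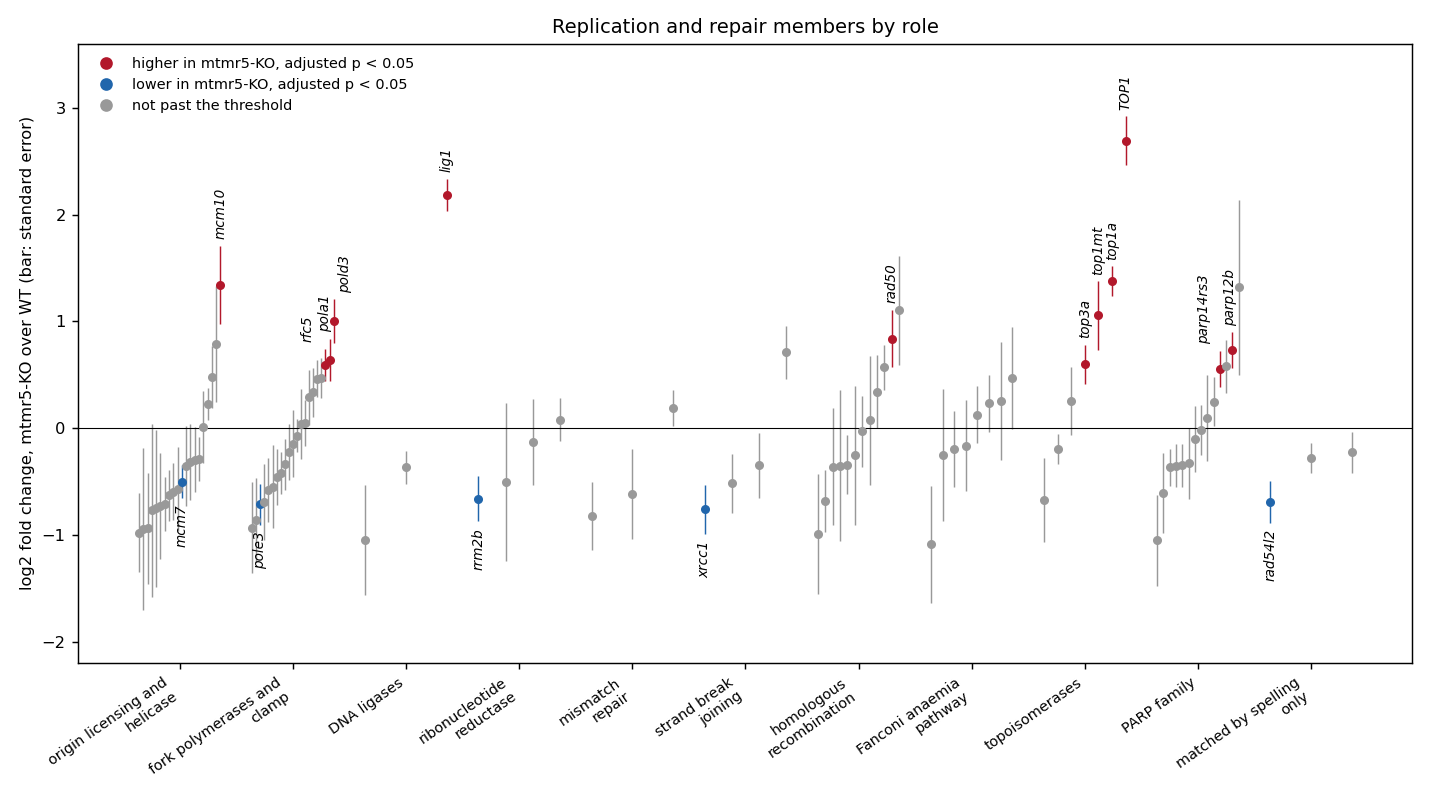
Log2 fold change of each of the 99 members (KO over WT, edgeR with TMM scaling), grouped by role on the horizontal axis. Points are members and bars their standard errors. The 12 members that rose are red, the 5 that fell are blue, and TOP1 (2.69) and lig1 (2.18) lie above all others.

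In 15 members every KO library was above every WT library, and in 9 every KO library was below. These are 15.2% and 9.09% of the members, against 13.9% and 11.0% of all rows. Libraries with the same replicate number deviated together, so the numbers pair them, and the test was also run with the replicate as a block. With the block, 16 members rose (14.8% of all rows did) and 11 fell (11.7% of all rows did). All 17 calls were kept. The members added above WT included xrcc4, rfc1 and pold4, and the 6 added below were pcna, mcm4, pold1, mcm2, msh6 and orc5. Without KO replicates 3 and 4, 5 members rose and 1 fell, while of all 19412 rows 1581 rose and 798 fell.

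Of the 3 DNA ligases, 1 rose and 2 did not pass (1 rose and 2 fell with library totals). Shares over all rows with TMM were 13.5% rising and 7.51% falling. The ligase lig1 stood at 397, 382, 473 and 440.2 CPM in KO heads and 89.6, 92.0, 105 and 85.8 CPM in WT heads. The lowest KO library was thus far above the highest WT library, and the spread within each genotype was small beside the gap. The log2 fold change was 2.18 ± 0.15 (SE; edgeR adjusted p = 5.46e-07), and it stayed at 1.2 with library totals (adjusted p = 0.000105) and at 2.03 without KO replicates 3 and 4. The nuclear and mitochondrial ligase lig3 had 21.6, 16.4, 15.04 and 18.4 CPM in KO heads and 24.2, 21.5, 23.9 and 22.5 CPM in WT heads, and the groups overlapped slightly (log2 fold change -0.37 ± 0.16, edgeR adjusted p = 0.108). Without KO replicate 1 lig3 fell (log2 fold change -0.49, edgeR adjusted p = 0.0365). The end-joining ligase lig4 had 1.34, 2.25, 0.187 and 0.674 CPM in KO heads and 1.79, 2.68, 2.34 and 2.73 CPM in WT heads. At these low levels KO replicate 3 held almost none of it, and the difference did not pass (log2 fold change -1.05 ± 0.51, edgeR adjusted p = 0.163). Without KO replicate 2 lig4 fell (log2 fold change -1.68, edgeR adjusted p = 0.0378). Of the summed CPM of all members, lig1 took 23.8% ± 1.37 in KO heads and 8.05% ± 0.675 in WT heads (SD, n = 4 each).

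Ratios of one gene to another within a library do not depend on the scaling. The log2 ratio of lig1 to pcna, its partner on the lagging strand, was 4.25 ± 0.71 in KO heads and 1.22 ± 0.68 in WT heads (SD, n = 4 each). That of lig1 to fen1 was 6.09 ± 0.42 in KO heads and 3.52 ± 0.24 in WT heads. Both ratios were higher in every KO library than in any WT library. Its log2 ratio differed between KO and WT by 3.03 to pcna, 2.56 to fen1, 2.56 to lig3 and 3.65 to lig4. Each gave p = 0.0286 in an exact two-sided permutation test, the smallest that 4 against 4 libraries allow. Of 12 ratios compared, these 4 and pold1 to pola1 passed unadjusted, but 0 passed after Benjamini-Hochberg adjustment (adjusted p = 0.0686 for all 5, exact permutation test). The pairs were picked knowing that lig1 was high, so these ratios describe its rise and do not add evidence for it.

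Of the 7 topoisomerases, 4 rose and 0 fell, with edgeR as with DESeq2, while with library totals 1 rose and 2 fell. Among all rows 13.5% rose and 7.51% fell (edgeR with TMM). TOP1 stood at 239, 203, 339 and 314 CPM in KO heads and 28.7, 35.1, 47.4 and 58.2 CPM in WT heads. The KO libraries were all several times the WT ones, and in both genotypes replicates 3 and 4 were above replicates 1 and 2. The log2 fold change was 2.69 ± 0.23 (SE; edgeR adjusted p = 1.30e-06), and 1.71 with library totals (adjusted p = 2.04e-05). The row top1a had 180.3, 160.5, 185 and 208 CPM in KO heads and 72.1, 64.6, 73.8 and 72.4 CPM in WT heads. It varied little within either genotype, and its log2 fold change was 1.38 ± 0.14 (edgeR adjusted p = 3.95e-06). With library totals the value of top1a was 0.40 and no longer passed (adjusted p = 0.0836). In the table of gene names TOP1 matched 2 gene IDs and top1a matched 0, so which gene the row TOP1 stands for is not settled. Reads that match closely related genes may have been lost or split by the counting.

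The mitochondrial topoisomerase top1mt, which relaxes the mitochondrial genome, had 4.85, 5.10, 3.55 and 4.43 CPM in KO heads and 2.37, 3.17, 1.78 and 1.29 CPM in WT heads. Its groups did not overlap (log2 fold change 1.06 ± 0.32, edgeR adjusted p = 0.0290), but the value was 0.11 with library totals and the call was lost without KO replicate 1, 2 or 4 or WT replicate 3 or 4 (adjusted p = 0.0531 to 0.0888). The gene top3a, which with BLM dissolves joined DNA molecules, had 15.3, 12.5, 13.5 and 12.2 CPM in KO heads and 7.56, 8.53, 8.66 and 10.7 CPM in WT heads. It too did not overlap (log2 fold change 0.60 ± 0.18, edgeR adjusted p = 0.0284), but turned to -0.35 with library totals. Its call was lost without KO replicate 1 or 3 or WT replicate 1, 2 or 3 (adjusted p = 0.0508 to 0.0838), and without the count filter (edgeR adjusted p = 0.0624). The type II enzymes did not pass. The value of top2a, the form of dividing cells, was -0.68 and that of top2b, the form of resting cells and neurons, was -0.19 (edgeR adjusted p = 0.258 and 0.349). The related top3b was at 0.25 (edgeR adjusted p = 0.617).

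**Figure D2:**
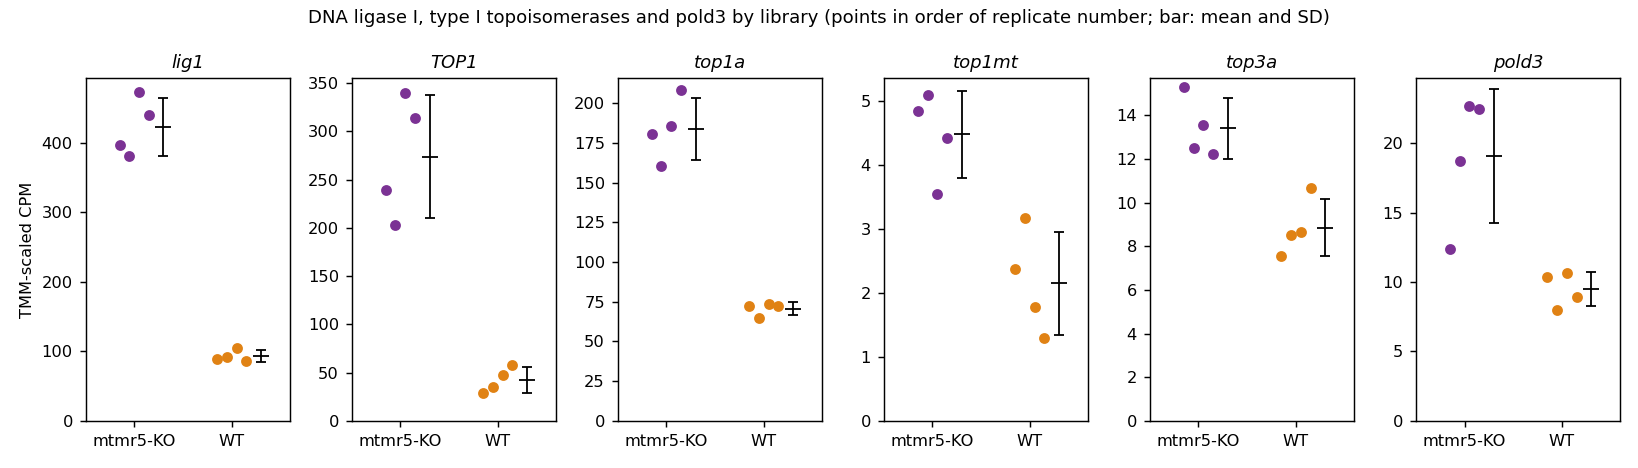
TMM-scaled CPM of lig1, TOP1, top1a, top1mt, top3a and pold3 in each of the 4 KO (left, purple) and 4 WT (right, orange) libraries. Bars give the mean and SD of each genotype. In each of the 6 genes the lowest KO library lies above the highest WT library, and the gap is widest for lig1 and TOP1.

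The subunits that license origins and unwind DNA leaned down, with 15 of 20 log2 fold changes negative and a median of -0.54. By the test 1 rose and 1 fell (0 and 15 with library totals). With TMM 13.5% of all rows rose and 7.51% fell, so the calls did not set this group apart. The helicase subunit mcm7 had 51.1, 74.2, 55.7 and 53.1 CPM in KO heads and 75.4, 92.6, 88.9 and 74.7 CPM in WT heads. Its highest KO library was just below its lowest WT library. The log2 fold change was -0.50 ± 0.15 (edgeR adjusted p = 0.0301; 0.00142 with the replicate block), and without the block the call was lost without KO replicate 1, 3 or 4 or WT replicate 2 or 3 (adjusted p = 0.0528 to 0.104). The other 5 subunits of the ring had negative values that did not pass in the edgeR fit of genotype only: mcm2 -0.63, mcm3 -0.59, mcm4 -0.71, mcm5 -0.29 and mcm6 -0.30 on the log2 scale. In mcm4 the values were 9.40, 12.65, 5.23 and 6.64 CPM in KO heads and 17.2, 15.3, 11.8 and 11.7 CPM in WT heads, and in mcm2 8.06, 7.75, 5.61 and 6.64 CPM in KO heads and 13.5, 13.8, 7.54 and 8.65 CPM in WT heads. Each of these pairs had the KO library lower, and both fell with the block (log2 fold change -0.77, edgeR adjusted p = 0.00560 for mcm4, and -0.61, adjusted p = 0.0307 for mcm2). The gene mcm4 also fell with DESeq2 (adjusted p = 0.0333), limma-voom (0.0477), RLE scaling (edgeR, 0.0490) and limma-trend (0.0388). It fell without the count filter (edgeR adjusted p = 0.0250) and without KO replicate 2 (0.0109). In contrast, mcm2 did not pass with DESeq2 (adjusted p = 0.0522), but fell without the count filter (edgeR adjusted p = 0.0495) or WT replicate 3 (0.0462).

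Among the loading and firing factors, orc5 of the origin recognition complex had 0.896, 3.24, 1.59 and 2.02 CPM in KO heads and 4.86, 4.04, 2.97 and 3.52 CPM in WT heads. KO replicate 1 was the lowest, KO replicate 2 lay inside the WT range, and orc5 did not pass (edgeR adjusted p = 0.0740). It fell with the block (log2 fold change -1.06, edgeR adjusted p = 0.0460), with DESeq2 (adjusted p = 0.0421) and without KO replicate 2 (edgeR adjusted p = 0.0205). With library totals orc5 fell too, as did 10819 of all 19412 rows. The MCM loader cdc6 was at 0.01, and cdc45 and the kinase gene cdc7, at few counts, were at -0.73 and -0.94 on the log2 scale, none of them past the test with all libraries. Without KO replicate 1 cdc7 fell (log2 fold change -2.59, edgeR adjusted p = 0.0223). In the other direction, mcm10 rose, which helps to fire loaded helicases and is not part of the ring. It had 3.06, 3.24, 2.99 and 3.46 CPM in KO heads and 1.70, 0.711, 1.01 and 1.58 CPM in WT heads. All KO libraries were close to each other and above WT (log2 fold change 1.34 ± 0.37, edgeR adjusted p = 0.0164; 0.37 with library totals). The call of mcm10 was lost without WT replicate 2 or 3 (adjusted p = 0.0564 to 0.0605). The 4 GINS genes had log2 fold changes of 0.23 (gins1), -0.77 (gins2), -0.31 (gins3) and -0.57 (gins4), and the remaining ORC genes of -0.94 (orc1), -0.36 (orc3), 0.48 (orc4) and -0.75 (orc6), none past the test. The MCM paralog mcm3l was at 0.79 (edgeR adjusted p = 0.339).

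Of the 21 polymerase, primase, clamp and clamp loader genes, 3 rose and 1 fell (0 and 13 with library totals), with a median log2 fold change of -0.15. These counts lay near the shares of all rows with TMM, 13.5% rising and 7.51% falling. The clamp gene pcna had 39.6, 22.2, 18.9 and 14.2 CPM in KO heads and 72.5, 41.8, 35.2 and 23.5 CPM in WT heads. The level differed between replicates of a genotype as much as between genotypes, so the groups overlapped (log2 fold change -0.86 ± 0.39, edgeR adjusted p = 0.159). Within each replicate number, however, the KO library was lower by nearly the same factor: the log2 differences were -0.87, -0.91, -0.89 and -0.72 for replicates 1 to 4. With the block pcna fell by 0.85 on the log2 scale (edgeR adjusted p = 2.67e-05). It also fell with DESeq2 (adjusted p = 0.0405) and without KO replicate 1 (edgeR adjusted p = 0.0329). Its partner fen1 had 3.81, 6.75, 8.41 and 6.64 CPM in KO heads and 8.40, 8.72, 7.09 and 8.11 CPM in WT heads and did not pass (log2 fold change -0.34 ± 0.24, edgeR adjusted p = 0.351).

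**Figure D3:**
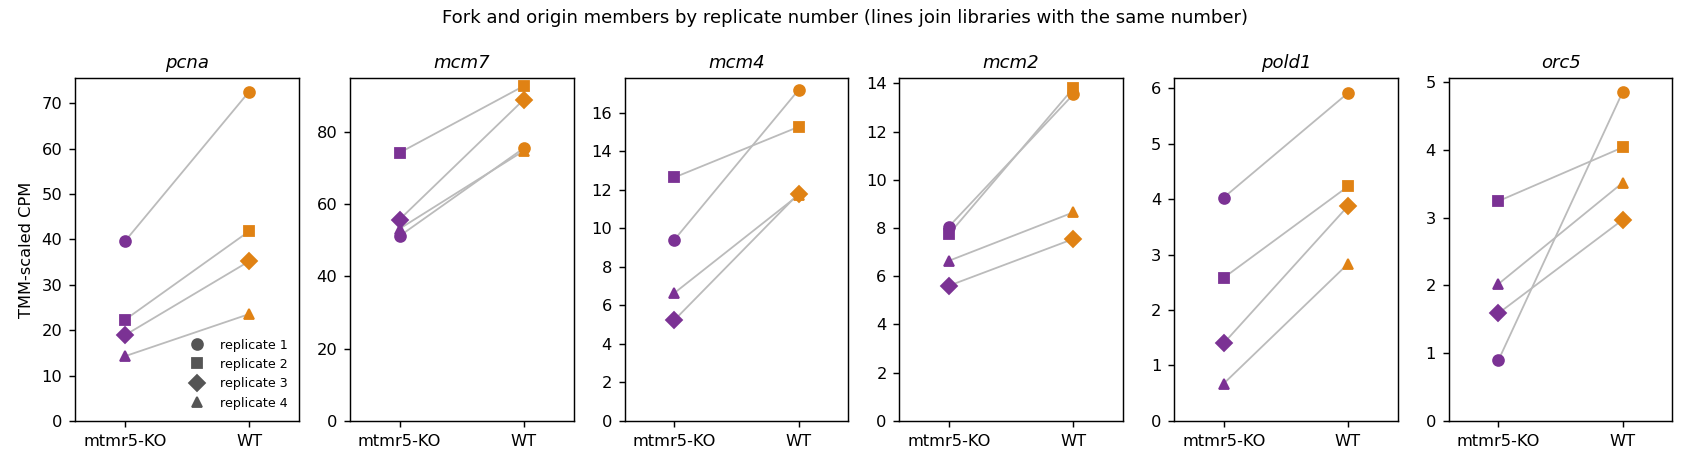
TMM-scaled CPM of pcna, mcm7, mcm4, mcm2, pold1 and orc5 in KO (left, purple) and WT (right, orange) libraries. Marker shapes give the replicate number and grey lines join libraries that share it. All lines climb towards WT, as the genes shown are among the 30 members lower in KO in all 4 pairs, while 21 were higher in all 4. The share of all rows that did so was not counted, so these counts describe the members only. The levels of pcna and pold1 differ widely between numbers.

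The subunits of one polymerase did not move together. In DNA polymerase delta, which copies the lagging strand, the accessory gene pold3 rose. It had 12.4, 18.7, 22.7 and 22.4 CPM in KO heads and 10.4, 8.01, 10.6 and 8.93 CPM in WT heads, with KO replicate 1 nearest to WT (log2 fold change 1.00 ± 0.20, edgeR adjusted p = 0.00234). With library totals pold3 was level at -0.0019, and without KO replicates 3 and 4 it was 0.68 (adjusted p = 0.0643). The catalytic gene pold1 had 4.03, 2.58, 1.402 and 0.674 CPM in KO heads and 5.92, 4.23, 3.88 and 2.83 CPM in WT heads. It was lower in KO within each number but did not pass (edgeR adjusted p = 0.135). It fell with the block (log2 fold change -1.102, edgeR adjusted p = 0.0230) and without KO replicate 1 (adjusted p = 0.0264). With library totals pold1 fell too, as did 10819 of all 19412 rows. The small subunit pold4 was at 0.47 and rose with the block (edgeR adjusted p = 0.0442) and without KO replicate 1 (adjusted p = 0.0349), and pold2 was at 0.34. Both were negative with library totals, pold4 at -0.52 and pold2 at -0.61.

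In DNA polymerase alpha, which with primase starts each fragment, the catalytic gene pola1 rose. It had 15.6, 10.9, 10.4 and 10.7 CPM in KO heads and 8.46, 8.07, 6.95 and 7.03 CPM in WT heads. KO replicate 1 was well above the rest (log2 fold change 0.64 ± 0.20, edgeR adjusted p = 0.0315), and the value turned to -0.31 with library totals. The call was lost without KO replicate 1 or WT replicate 2, 3 or 4 (adjusted p = 0.0683 to 0.102), and without the count filter (edgeR adjusted p = 0.0605). The partner pola2 was at -0.15 and the primase genes prim1 and prim2 at -0.46 and -0.58, none past the test. The log2 ratio of pold1 to pola1 was -2.69 ± 0.90 in KO heads and -0.90 ± 0.33 in WT heads (SD, n = 4 each), a difference of -1.79 (exact permutation p = 0.0286, adjusted p = 0.0686). In DNA polymerase epsilon, the histone-fold subunit pole3 fell. It had 11.5, 10.5, 7.76 and 7.22 CPM in KO heads and 16.4, 14.3, 17.01 and 13.3 CPM in WT heads, with no overlap (log2 fold change -0.72 ± 0.19, edgeR adjusted p = 0.0159), and its call was lost without WT replicate 3 (adjusted p = 0.0598). Its histone-fold partner pole4 also did not overlap but did not pass (log2 fold change -0.42 ± 0.19, edgeR adjusted p = 0.143), and pole2 was at 0.29.

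Of the clamp loader, rfc5 rose. It had 28.7, 31.5, 23.6 and 30.6 CPM in KO heads and 17.9, 17.7, 19.7 and 20.5 CPM in WT heads, with no overlap (log2 fold change 0.59 ± 0.15, edgeR adjusted p = 0.00975; -0.34 with library totals). The large subunit rfc1, at 0.46, rose with the block (edgeR adjusted p = 0.0427), with upper-quartile scaling (adjusted p = 0.0493) and without KO replicate 2 (adjusted p = 0.0345), while it was -0.53 with library totals. The values of rfc2, rfc3 and rfc4 were -0.69, 0.04 and 0.05, and those of the single-strand binding genes rpa1, rpa2 and rpa3 were -0.07, -0.23 and -0.55, none past the test with TMM and all libraries. Without KO replicate 3 rfc2 fell (log2 fold change -1.17, edgeR adjusted p = 0.0204), as it did without KO replicates 3 and 4 (adjusted p = 0.0455).

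Ribonucleotide reductase makes the deoxynucleotides for both replication and repair, and of its 4 rows 0 rose and 1 fell (0 and 2 with library totals). Across all rows 13.5% rose and 7.51% fell with TMM. The subunit rrm2b, which in mammals is induced by p53 and serves resting cells, had 7.09, 7.75, 4.77 and 9.05 CPM in KO heads and 12.2, 10.6, 10.6 and 11.98 CPM in WT heads. The groups did not overlap (log2 fold change -0.66 ± 0.21, edgeR adjusted p = 0.0370), and the call was lost without KO replicate 3 or WT replicate 1, 2, 3 or 4 (adjusted p = 0.0679 to 0.0889). The call of rrm2b was also lost with upper-quartile scaling (edgeR adjusted p = 0.0517). The large subunit rrm1 had 10.8, 16.4, 16.2 and 14.8 CPM in KO heads and 17.9, 12.60, 13.97 and 10.4 CPM in WT heads and did not differ beyond that spread (log2 fold change 0.08 ± 0.20, edgeR adjusted p = 0.814; -0.91 with library totals). The symbol rrm2, the small subunit of the S phase, stood for 2 rows. The first had 2.39, 6.62, 8.32 and 9.91 CPM in KO heads and 1.09, 11.05, 14.7 and 11.7 CPM in WT heads. The second had 24.5, 25.2, 12.61 and 15.6 CPM in KO heads and 37.3, 17.8, 21.5 and 8.75 CPM in WT heads. Replicate 1 of both genotypes was low in the first row, and in WT heads it was also the highest in the second. Summed, both rows gave 26.9, 31.8, 20.9 and 25.5 CPM in KO heads and 38.4, 28.9, 36.2 and 20.5 CPM in WT heads, and the sum did not pass (log2 fold change -0.24 ± 0.20, edgeR adjusted p = 0.431).

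Mismatch repair had 0 of 3 genes past the test with edgeR or DESeq2, and 1 at an unadjusted p under 0.05, while with library totals all 3 fell. The gene msh6, which recognises single mismatches, had 2.01, 4.77, 3.27 and 2.31 CPM in KO heads and 5.89, 7.23, 5.27 and 3.62 CPM in WT heads. KO replicate 2 lay inside the WT range, and msh6 did not pass (edgeR adjusted p = 0.0809). It fell with the block (log2 fold change -0.86, edgeR adjusted p = 0.0317) and without KO replicate 2 (adjusted p = 0.0255). With library totals msh6 fell too, as did 10819 of all 19412 rows. The gene msh3, which recognises larger loops, had 1.27, 2.32, 0.654 and 2.31 CPM in KO heads and 2.21, 3.29, 2.93 and 1.65 CPM in WT heads (log2 fold change -0.61 ± 0.42, edgeR adjusted p = 0.332).

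Of the 4 XRCC genes of strand break joining, 0 rose and 1 fell (0 and 3 with library totals), where 13.5% and 7.51% of all rows did with TMM. The scaffold of single-strand break repair, xrcc1, had 6.49, 8.28, 4.48 and 5.10 CPM in KO heads and 12.62, 8.69, 9.75 and 10.5 CPM in WT heads. The highest KO library was just below the lowest WT library (log2 fold change -0.76 ± 0.23, edgeR adjusted p = 0.0281), and the call was lost without KO replicate 3 or 4 or WT replicate 1, 3 or 4 (adjusted p = 0.0565 to 0.0868). The end-joining gene xrcc4, which binds LIG4, had 10, 5.56, 8.22 and 5.68 CPM in KO heads and 5.02, 4.78, 4.16 and 4.02 CPM in WT heads. It did not overlap, missed the limit (log2 fold change 0.71 ± 0.25, edgeR adjusted p = 0.0545) and was -0.26 with library totals. It passed with the block (edgeR adjusted p = 0.0480), DESeq2 (adjusted p = 0.0271), upper-quartile scaling (edgeR adjusted p = 0.0425) and without KO replicate 2 (edgeR adjusted p = 0.0385). The Ku subunit gene xrcc6 had 4.78, 3.77, 6.82 and 2.89 CPM in KO heads and 6.92, 6.17, 7.68 and 5.35 CPM in WT heads (log2 fold change -0.52 ± 0.27, edgeR adjusted p = 0.200), and its partner xrcc5 was at -0.35. Without KO replicate 3 xrcc6 fell (log2 fold change -0.80, edgeR adjusted p = 0.0488).

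Of the 12 recombination genes, 1 rose and 0 fell (0 and 4 with library totals), where 13.5% and 7.51% of all rows did with TMM. The gene rad50, part of the complex that senses and trims broken ends, had 5.22, 5.23, 8.88 and 4.43 CPM in KO heads and 2.99, 3.36, 3.49 and 3.41 CPM in WT heads. The groups did not overlap, with KO replicate 3 the highest (log2 fold change 0.84 ± 0.27, edgeR adjusted p = 0.0379). With library totals rad50 was at -0.16, and its call was lost without KO replicate 3 or WT replicate 1, 2, 3 or 4 (adjusted p = 0.0750 to 0.140). The call of rad50 was also lost without the count filter (edgeR adjusted p = 0.0628) and with limma-trend (adjusted p = 0.0521). The gene brca2, a mediator of recombination, had 4.25, 3.71, 3.08 and 2.31 CPM in KO heads and 6.89, 4.23, 6.53 and 3.91 CPM in WT heads. Its values leaned down without passing (log2 fold change -0.68 ± 0.29, edgeR adjusted p = 0.112). The others reported here lay between -0.99 (rad51ap1) and 1.103 (rad51c), all below 8 CPM in every library.

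The Fanconi pathway, which unhooks crosslinked strands, had 0 of 8 genes past the test with edgeR or DESeq2, and 0 at an unadjusted p under 0.05, and its median log2 fold change was -0.02. With library totals 0 rose and 3 fell. The gene fancf had 0.373, 0.397, 1.12 and 0.770 CPM in KO heads and 0.782, 1.97, 1.82 and 1.00 CPM in WT heads (log2 fold change -1.09 ± 0.55, edgeR adjusted p = 0.177). The ligase gene fancl had 2.69, 0.728, 0.934 and 2.50 CPM in KO heads and 0.921, 1.26, 1.29 and 1.47 CPM in WT heads (log2 fold change 0.47 ± 0.48, edgeR adjusted p = 0.533; -0.48 with library totals). These genes were thinly read, and fancg, one of the better read, had 8.73, 7.08, 3.64 and 7.80 CPM in KO heads and 5.61, 4.88, 7.13 and 5.63 CPM in WT heads (log2 fold change 0.23 ± 0.27, edgeR adjusted p = 0.581; -0.69 with library totals). The central pair fancd2 and fanci were at 0.13 and -0.16, and fanca, fancc and fance at 0.26, -0.25 and -0.19.

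Of the 14 PARP genes, 2 rose and 0 fell (2 and 1 with DESeq2, 0 and 9 with library totals). Both that rose belong to the mono-ADP-ribosyltransferases and not to the break sensors. The gene parp12b had 41.9, 54.3, 56.2 and 61.7 CPM in KO heads and 25.6, 29.6, 34.3 and 39.3 CPM in WT heads. All KO libraries were above all WT libraries, but only just at the boundary (log2 fold change 0.73 ± 0.17, edgeR adjusted p = 0.00535; -0.23 with library totals). In the RefSeq order of the GRCz12tu assembly 5 genes separate parp12b from sbf1, the deleted gene. Of the 40 genes nearest to sbf1 there, 27 were tested, 4 rose, parp12b among them, and 2 fell. Over all rows tested, 13.5% rose and 7.51% fell. The part of this position in the value of parp12b was not tested. The gene parp14rs3 had 59.9, 64.0, 66.8 and 103 CPM in KO heads and 46.4, 51.5, 49.3 and 52.2 CPM in WT heads. KO replicate 4 stood far above the other KO libraries (log2 fold change 0.56 ± 0.17, edgeR adjusted p = 0.0290; -0.43 with library totals), and the call was lost without KO replicate 4 or WT replicate 1, 2, 3 or 4 (adjusted p = 0.0518 to 0.113). Its relative parp14rs4 had 1.64, 0.795, 1.03 and 0.481 CPM in KO heads and 2.09, 2.07, 2.31 and 1.79 CPM in WT heads, without overlap and in the opposite direction. It did not pass (log2 fold change -1.05 ± 0.43, edgeR adjusted p = 0.0947), but fell with DESeq2 (adjusted p = 0.0479) and without KO replicate 1 (edgeR adjusted p = 0.0295). Reads may be split among these related copies. The main break sensors parp1 and parp2 were at -0.35 and 0.24, and did not pass (edgeR adjusted p = 0.241 and 0.493). The other 9 lay between -0.61 (parp4) and 1.32 (parp11, at under 1.5 CPM in every library), none past the test.

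Of the 3 genes matched by spelling alone, rad54l2 fell. It codes for a chromatin remodeller that binds steroid receptors, and had 30.7, 21.0, 18.5 and 18.3 CPM in KO heads and 46.4, 31.5, 36.05 and 29.3 CPM in WT heads. KO replicate 1 overlapped the WT range (log2 fold change -0.69 ± 0.19, edgeR adjusted p = 0.0193), and the call was lost without WT replicate 1 (adjusted p = 0.0684). The transcription elongation gene cdc73 had 23.0, 23.7, 25.5 and 25.1 CPM in KO heads and 28.3, 26.9, 30.6 and 32.4 CPM in WT heads (log2 fold change -0.28 ± 0.14, edgeR adjusted p = 0.166). The RNA export gene mcm3ap had 10.2, 12.4, 10.7 and 7.51 CPM in KO heads and 13.3, 10.6, 12.3 and 11.7 CPM in WT heads (log2 fold change -0.23 ± 0.19, edgeR adjusted p = 0.444). Without these genes, 12 of 96 members rose and 4 fell.

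Of the 17 calls, 6 were kept when each of the 8 libraries was left out in turn: lig1, TOP1, top1a, pold3, rfc5 and parp12b. Of these 6, pold3 and parp12b did not pass without KO replicates 3 and 4 together (edgeR adjusted p = 0.0643 and 0.0728). With library totals in place of TMM, 5 of the 12 members that rose kept a positive value (lig1, TOP1, top1a, mcm10 and top1mt) and 7 turned negative. Of these, lig1 and TOP1 alone passed as higher, beside 59 of the 99 members that passed as lower. Among all 19412 rows, 719 passed as higher and 10819 as lower with library totals. The members that fell were lower under both scalings, but library totals moved the median of all rows to -0.98, a shift that could not turn them round.

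**Figure D4:**
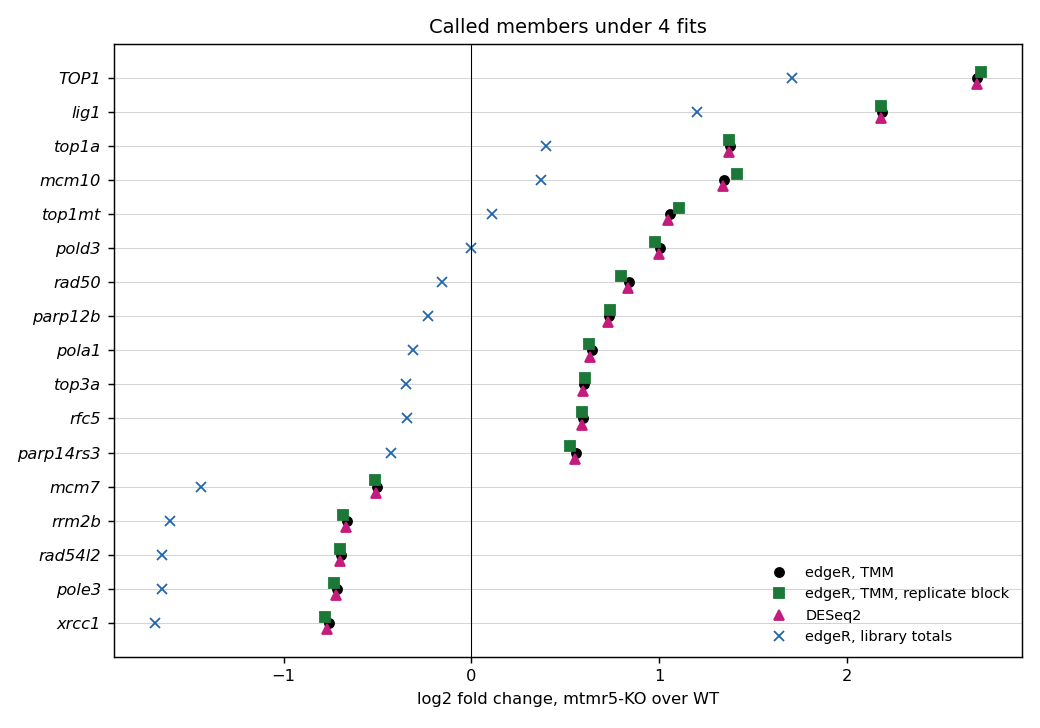
Log2 fold change (KO over WT) of the 17 called members in 4 fits: edgeR with TMM, edgeR with TMM and the replicate block, DESeq2, and edgeR scaled to library totals. The first 3 fits nearly coincide, and library totals (blue crosses) shift all members to the left, so that 7 of the 12 higher members fall below 0.

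The rest of the replication machinery, taken from a list of other fork and chromatin assembly factors, had 5 of 38 genes rising and 0 falling. The median log2 fold change was -0.23 (2 rising and 27 falling with library totals). Over all rows tested, the shares with TMM were 13.5% rising and 7.51% falling. The risers were led by histone chaperones. The FACT subunit ssrp1b had 87.9, 85.4, 139 and 109 CPM in KO heads and 17.1, 22.3, 23.1 and 28.3 CPM in WT heads (log2 fold change 2.22 ± 0.19, edgeR adjusted p = 1.42e-06). The chromatin assembly subunit chaf1a had 106, 89.6, 109 and 122 CPM in KO heads and 36.6, 37.0, 37.6 and 31.8 CPM in WT heads (log2 fold change 1.58 ± 0.14, edgeR adjusted p = 1.88e-06). As with lig1 and TOP1, neither gene overlapped between genotypes. Of 69 other repair genes, 6 rose and 5 fell (2 and 48 with library totals), led by the nuclease mre11a, the partner of RAD50 (log2 fold change 1.86 ± 0.27, edgeR adjusted p = 0.000128), and by the damage sensor xpc (1.73 ± 0.26, adjusted p = 0.000386). Of 26 checkpoint genes, 2 rose and 2 fell (1 and 21 with library totals), with the break adaptor mdc1 at 2.26 ± 0.18 (edgeR adjusted p = 1.03e-06) and gadd45aa, a stress gene, at -1.22 ± 0.33 (adjusted p = 0.0169).

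Markers of dividing cells and of progenitors were read beside the helicase and clamp genes. Over all rows tested, 13.5% rose and 7.51% fell with TMM. Of 37 genes of cycling cells, 3 rose and 2 fell (1 and 30 with library totals), with a median log2 fold change of -0.31, and their summed level was 510.4 to 586 CPM in KO heads and 421 to 486 CPM in WT heads. The proliferation antigen mki67 fell, at 12.9, 12.5, 10.1 and 12.3 CPM in KO heads and 29.8, 24.8, 22.1 and 15.14 CPM in WT heads (log2 fold change -0.94 ± 0.20, edgeR adjusted p = 0.00319). The mitotic genes cdk1, ccna2, aurkb and plk1 were at -0.13, -0.39, -0.13 and -0.58 without passing, and none of these markers was at 0 in any library. The chromosomal passenger gene incenp rose, at 94.1, 93.6, 133 and 132 CPM in KO heads and 25.3, 28.2, 34.7 and 25.3 CPM in WT heads (log2 fold change 1.996 ± 0.17, edgeR adjusted p = 1.34e-06). Of 30 genes of proliferative progenitors and the retina margin, 2 rose and 14 fell (0 and 26 with library totals), with a median of -0.56 and a summed level of 898 to 1172 CPM in KO heads and 1143.4 to 1234.5 CPM in WT heads. Among them sox2 had 63.5, 56.1, 55.5 and 43.9 CPM in KO heads and 82.5, 100.8, 93.4 and 89.02 CPM in WT heads, and dlc, a Notch ligand, 19.0, 15.4, 10.6 and 15.8 CPM in KO heads and 45.1, 38.3, 37.3 and 38.7 CPM in WT heads. How far such cells account for the lower mcm7 and pcna was not tested.

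Marker genes of other tissues also differed, and their counts are to be set against 13.5% of all rows rising and 7.51% falling with TMM. The liver lies outside the head, and the source of its transcripts in these pools was not tested. Genes of the lens, crystallins and others such as lim2.1, mipa and mipb, fell in 18 of 21 cases (median log2 fold change -4.50). With the replicate block 5 fell, and with library totals 21. Summed, they had 296 to 3620 CPM in KO heads and 12323 to 59239 CPM in WT heads. Liver genes rose in 12 of 17, or in 8 with library totals (median 1.996 with TMM), with 227 to 690.2 CPM in KO heads and 96.3 to 153 CPM in WT heads, and skeletal muscle genes rose in 8 of 20 and fell in 1 (1 and 5 with library totals), with 526 to 678 CPM in KO heads and 365 to 423 CPM in WT heads. Neuronal genes rose in 8 of 19 and fell in 3 (2 and 9 with library totals), with 7027 to 8569 CPM in KO heads and 4493 to 5426 CPM in WT heads. Markers of microglia and macrophages (0 of 10) and of erythrocytes (0 of 4) did not pass with edgeR. At an unadjusted p under 0.05 they numbered 0 and 1, and with DESeq2 0 and 1. With library totals 4 of the microglia and macrophage genes fell, and 0 of the erythrocyte genes passed. Of 11 interferon-stimulated genes, a class to which PARP12 and PARP14 belong in mammals, 1 rose and 0 fell (0 and 3 with library totals). The part of these tissues in the levels of lig1, TOP1 and top1a was not tested.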

How the data were processed

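Poly(A) RNA of pooled 7 dpf heads was analysed in 4 mtmr5-KO and 4 WT libraries. Per the submitters' processing notes, the authors used Trim Galore 0.6.7 for trimming, STAR 2.7.11a for alignment (GRCz11) and HTSeq 2.0.5 for counting, and their methods name no strand setting. The authors deposited a table of raw counts (32520 rows) and a table of normalized signal values, those counts divided by a size factor per library (19412 rows). Repeated symbols (2901) were kept as separate rows. Of the 99 members, 92 matched 1 gene ID by symbol, 4 matched 2 and 3 matched 0.

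Rows reaching 10 counts in 3 or more libraries were tested with the edgeR 4.0.16 quasi-likelihood test (robust, TMM, genotype only) in R 4.3.3, with Benjamini-Hochberg adjustment over all 19412 rows. SE is the log2 fold change divided by the root of the F statistic. Ratios used counts plus 0.5 and exact two-sided permutation tests over libraries (SciPy 1.17.1). Differences within a replicate number used CPM plus 0.1. The scripts were tested on simulated data.

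The groups came from the labels. KO and WT libraries of the same replicate number correlated in their deviations from the genotype means at r = 0.21 to 0.37 over 12982 genes, and libraries of different number at -0.25 to 0.16. Every pair of the same number exceeded 0.1, so the numbers were taken to pair the libraries. KO replicate 1 with WT replicate 2 (0.13) and KO replicate 4 with WT replicate 3 (0.16) exceeded 0.1 too, but lay below every pair of the same number. The fit with a replicate block is given where it changed a call. Nothing but breeding pairs over time is stated about the replicates. Pooled heads set the spread that p-values measure.

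The alternatives were DESeq2 1.42.0, limma 3.58.1 (voom, and trend on the normalized values plus 1), RLE, upper-quartile and library-total scaling, TMM without mitochondrial and the 20 most abundant rows, no filter, edgeR's own filter, the block, and leaving out libraries. The sum of both rrm2 rows and the block with library totals were chosen after seeing the data. Depth was 16104181 to 22761120 counts per library, so at 1 CPM a gene rested on few reads. Members and gene lists were chosen with earlier results of these data known. Per-library values are given for the ligases, pcna, fen1, members past the study's limits and the 3 of smallest p in each role, and those of mcm2, pold1, orc5, top1mt, the second rrm2 row and list genes were added after their values were seen. Sequences were not used here, and of genome positions only the order of genes around sbf1 (RefSeq, GRCz12tu). The values of 2 members are not reported here.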

Additional observations from a re-analysis of the deposited data

Results flagged for a closer look

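Within a genotype, a library was looked at again where its gap to the nearest other library took up more of the genotype's range than Dixon's limit for 4 samples allows. Of 72 sets of 4 values examined, 2 passed, and chance alone gives about 1 in 20. The first was parp14rs3 in KO replicate 4, at 103 CPM against 66.8 CPM in the next KO library. Without that library the log2 fold change of parp14rs3 was 0.32 and no longer passed (edgeR adjusted p = 0.113). The second was pola1 in KO replicate 1, at 15.6 CPM against 10.9 CPM in the next KO library. Without it the log2 fold change of pola1 was 0.46 (edgeR adjusted p = 0.102).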

How the results depend on the processing

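Over 35 named members and 20 alternatives, 561 of 701 values kept their direction and their side of the threshold, and of the members called in either direction 0 turned round outside the fits with library totals. The count of members that rose was 12, against 2 with library totals and 5 without KO replicates 3 and 4. It was 6 to 13 with 1 library left out. At the study's limits it was 4 with edgeR and 6 with DESeq2. The count that fell was 5, against 9 with DESeq2, 11 with the replicate block, 59 with library totals, 1 without KO replicates 3 and 4, 0 at the study's limits, and 2 to 9 with 1 library left out. The counts over all rows varied too. In the main fit 2618 rows rose and 1457 fell, against 3047 and 1981 with DESeq2 and 2879 and 2264 with the block. They were 719 and 10819 with library totals, and 1581 and 798 without KO replicates 3 and 4. With 1 library left out, 2011 to 2778 rows rose and 744 to 1829 fell. The block with library totals gave 2 members higher and 70 lower, against 766 and 11600 of all 19412 rows. The replicate block changed no call other than the 10 additions. With library totals 11 named members had negative in place of positive log2 fold changes: pold3 -0.0019, rfc5 -0.34, rrm1 -0.91, xrcc4 -0.26, rad50 -0.16, fancl -0.48, fancg -0.69, top3a -0.35, parp12b -0.23, parp14rs3 -0.43 and pola1 -0.31. With the block and library totals these were pold3 -0.0014, rfc5 -0.39, rrm1 -0.89, xrcc4 -0.30, rad50 -0.18, fancl -0.67, fancg -0.77, top3a -0.37, parp12b -0.24, parp14rs3 -0.46 and pola1 -0.35. All rows shifted in that scaling, and which scaling tracks RNA per cell was not tested. The log2 fold change of rrm1 crossed 0, at -0.0297 to 0.24 with 1 library left out and -0.0536 without KO replicates 3 and 4. The difference in log2 ratio of rrm2 to rrm1 ran from -1.27 to 0.13, and that of xrcc5 to xrcc6 from -0.0071 to 0.39, with 1 library left out. Some members under about 3 CPM, among them orc6, gins2, cdc7 and mcm8, had standard errors of 0.71 to 0.81. These were too wide for a change of the size of pcna to be detectable. Level alone did not set this: gins3 had 0.36, and the first rrm2 row, at higher levels, had 0.74.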

Other observations

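With TMM scaling 6 of the 69 other repair genes rose and 5 fell (2 and 48 with library totals). Of all rows tested, 13.5% rose and 7.51% fell with TMM. The excision repair genes among those called went in both directions. In nucleotide excision repair, the damage sensor xpc had 56.9, 64.4, 124 and 112 CPM in KO heads and 34.97, 17.9, 28.4 and 26.4 CPM in WT heads, and the nuclease ercc5 had 39.8, 47.4, 38.8 and 48.8 CPM in KO heads and 16.3, 21.3, 24.4 and 25.5 CPM in WT heads (log2 fold change 1.00 ± 0.17, edgeR adjusted p = 0.000430). The transcription-coupled factor ercc8 fell (log2 fold change -0.85 ± 0.22, edgeR adjusted p = 0.0125). In base excision repair, the glycosylase genes neil1 (0.98 ± 0.24, edgeR adjusted p = 0.00819) and ogg1 (1.52 ± 0.44, adjusted p = 0.0215) rose. The glycosylase row tdg.1 (-0.83 ± 0.19, edgeR adjusted p = 0.00594) and the abasic endonuclease apex1 (-0.73 ± 0.20, adjusted p = 0.0176) fell. Elsewhere among the repair genes, the nuclease scaffold slx4 (-1.05 ± 0.24, edgeR adjusted p = 0.00606) and the lesion-bypass polymerase polk (-1.18 ± 0.31, adjusted p = 0.0124) fell.

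With TMM scaling 13.5% of all rows tested rose and 7.51% fell. Of the 26 checkpoint genes, 2 rose and 2 fell with that scaling (1 and 21 with library totals). Beside mdc1 and gadd45aa, these were sesn1, which rose (log2 fold change 1.23 ± 0.26, edgeR adjusted p = 0.00460), and ccng1, which fell (-0.57 ± 0.17, adjusted p = 0.0222). Among genes of cycling cells, the pocket protein gene rbl1 (1.29 ± 0.20, edgeR adjusted p = 0.000199) and the mitotic kinase gene aurka (1.09 ± 0.24, adjusted p = 0.00419) rose, and the cyclin gene ccnb3 fell (-1.105 ± 0.34, adjusted p = 0.0286).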
